A study of Mus musculus with 6 samples.

Results

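Potassium channels let potassium leave the cell, which brings a sensory neuron back to rest after an action potential and sets how readily the next one starts. Their genes carry the Kcn prefix in the mouse. Voltage-gated alpha subunits (Kcna, Kcnb, Kcnc, Kcnd, Kcnq and Kcnh) form the pore and open on depolarisation, silent subunits (Kcnf, Kcng, Kcns and Kcnv) modify other channels, and inward-rectifier (Kcnj) and two-pore (Kcnk) channels hold the resting potential. Kcnab, Kcnip, Kcne and Kcnmb genes encode partner proteins that alter where and how fast the pores work. In the dorsal root ganglion, the cluster of sensory neuron cell bodies and glia beside the spinal cord, lowered potassium channel function is a known accompaniment of nerve injury and of heightened pain sensitivity.

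The members were all protein-coding genes whose symbol on the GRCm38 assembly begins with Kcn, except Kcnj8 and Kcnj10, which gave 92 genes of the 36793 gene identifiers deposited. RNA came from ganglia at the L3-L4 level of 3 knockout mice (KO, numbered 4 to 6 and labelled NMDA-R knockout) and 3 wild-type mice (WT, numbered 1 to 3). By the series title the deletion removes the GluN1 subunit of the NMDA glutamate receptor, encoded by Grin1, from Schwann cells, which ensheath peripheral axons. The sources used here do not give the Cre line, sex, age or litter. The labels call the cell type Schwann cells. Markers of neurons (Rbfox3, Snap25, Tubb3 and 5 others) summed to 16659 to 19204 TPM in KO and 14412 to 17854 TPM in WT. Markers of Schwann cells (Mbp and 8 others) summed to 7506 to 7763 TPM in KO and 5963 to 6806 TPM in WT. RNA of both cell types was thus present, and the values are those of whole ganglion.

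Libraries held 28536700 to 36249163 expected counts in KO and 28526704 to 32719517 in WT. KO libraries 5 and 6 differed by no more than sampling noise, with 0 of 10258 genes differing at a false discovery rate (FDR) of 0.05 by chi-square and 3382 to 7317 in the other 14 pairs of libraries. They were summed and counted as 1 sample, so n = 2 for KO and n = 3 for WT, and their library values are given below only to show the data. Grin1 itself was at 81.5, 116 and 116 CPM in KO libraries 4, 5 and 6, against 68.6, 114 and 74.4 CPM in WT libraries 1, 2 and 3, where CPM is counts per 1000000 after TMM scaling. The neurons of a whole ganglion keep the gene, so this does not check the labels. Red blood cell markers summed to 59732, 16414 and 16455 TPM in KO libraries 4, 5 and 6 and to 12738 to 24471 TPM in WT. Skeletal muscle markers summed to 58.6 TPM in KO library 4, 5.40 and 6.65 TPM in KO libraries 5 and 6 and 5.20 to 19.9 TPM in WT. KO library 4 stands apart in both. In bulk tissue, fewer cells of a type and less RNA per cell cannot be told apart.

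Levels are compared between genes as deposited TPM (transcripts per 1000000 transcripts), a unit corrected for length. Of the 92 members, 69 averaged at least 1 TPM, 41 at least 10 and 9 at least 100. Kcnab2, the beta subunit that helps carry Kcna channels to the axon, led with 646, 1081 and 1082 TPM in KO libraries 4, 5 and 6 and 620, 994 and 701 TPM in WT libraries 1, 2 and 3. KO library 4 and WT libraries 1 and 3 lay well below the other libraries, so the groups overlapped. Kcnip4 and Kcnip3, of the family whose calcium-binding products bring Kcnd channels to the surface, came next. Kcnip4 was at 170 ± 4.86 TPM in KO (SD, n = 2) and 270 ± 18.4 TPM in WT (SD, n = 3). Kcnip3 was at 203 ± 45.8 TPM in KO and 214 ± 45.5 TPM in WT. Among the pore-forming genes named here the order by mean over all samples ran from Kcna1 (152 TPM) through the sodium-activated channel Kcnt1 (130 TPM), Kcna6 (107 TPM), Kcnd1 (104 TPM) and Kcna2 (76.3 TPM) to the two-pore channel Kcnk1 (70.1 TPM). Within either genotype the SDs of most neighbours in this order overlapped, for example Kcna6 at 113 ± 34.7 TPM and Kcnd1 at 108 ± 27.3 TPM in KO, or 103 ± 21.7 TPM and 101 ± 20.1 TPM in WT.

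**Figure D1:**
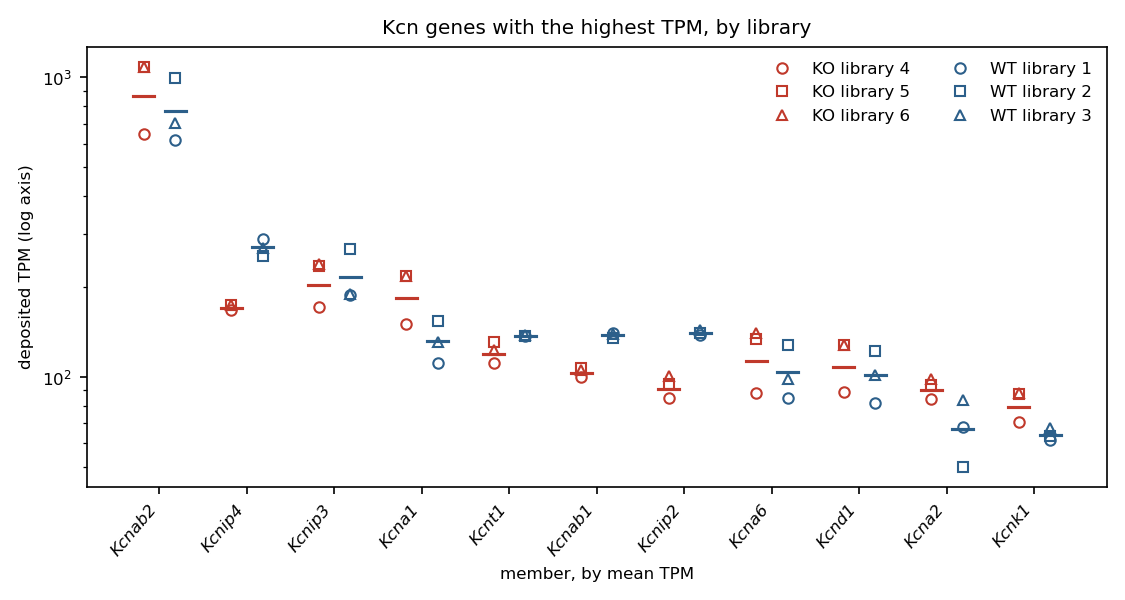
Deposited TPM of 11 of the 12 Kcn genes with the highest mean, on a log axis, in KO (red, left of each pair) and WT (blue, right), with 1 symbol per library and a bar at the mean of samples (KO libraries 5 and 6 averaged first). Kcnip4, Kcnip2, Kcnab1, Kcnt1, Kcna2 and Kcnk1 show no overlap between the KO and WT libraries. In CPM the same held for 24.2% of all genes tested. For Kcna2 the gap was narrow, with 84.4 TPM in KO library 4 and 83.3 TPM in WT library 3. Kcnab2 spreads from 646 to 1082 TPM in KO and from 620 to 994 TPM in WT.

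Summed over the subfamily, the 3 Kcnab genes held 30.1% of all member TPM, the 4 Kcnip genes 19.7% and the 8 Kcna genes 11.4%, while the 13 Kcnj genes without the glial and mural channels held 2.15%. The Kcnip sum was 517 ± 60.8 TPM in KO (SD, n = 2) and 674 ± 31.9 TPM in WT (SD, n = 3). The Kcna sum was 402 ± 90.7 TPM in KO and 320 ± 34.1 TPM in WT. The Kcnab sum was 968 ± 313 TPM in KO and 911 ± 194 TPM in WT. All members together summed to 3112 ± 708 TPM in KO and 3099 ± 338 TPM in WT, a difference far within the spread between samples.

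**Figure D2:**
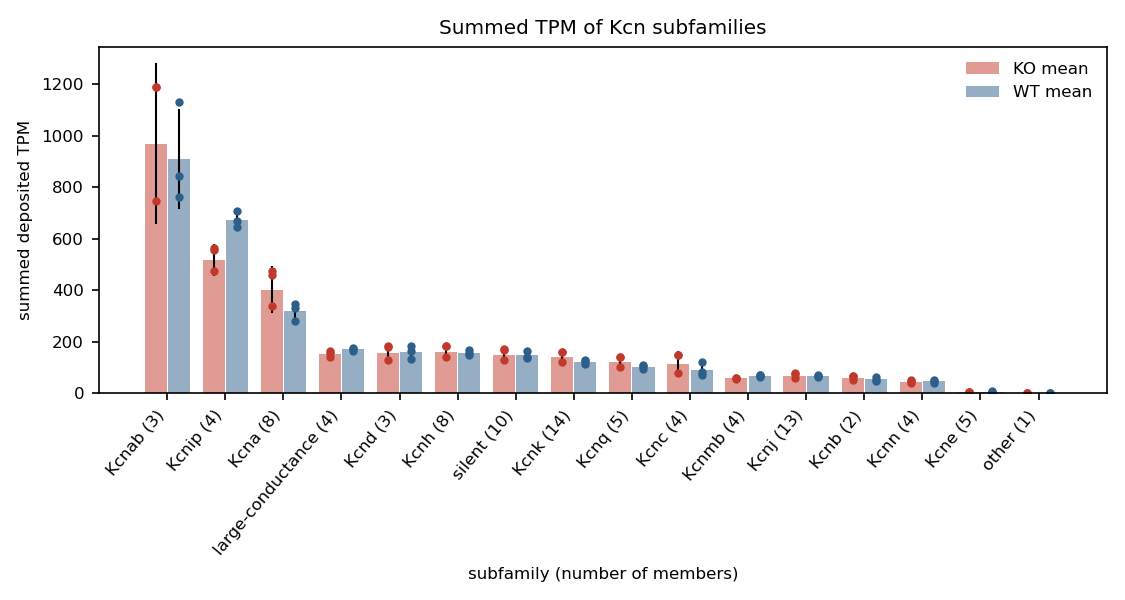
Summed deposited TPM of each Kcn subfamily, with the number of members in brackets, in KO (red) and WT (blue). Bars are means of samples, lines SDs (n = 2 for KO and n = 3 for WT), and points single libraries. The Kcnip sum was lower in all KO libraries than in any WT library. The Kcnab sum had the largest SD in each genotype and also the largest mean, so this does not rank its spread relative to the level.

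The comparison of KO with WT asks whether removing the receptor from Schwann cells alters these genes in the ganglion. Of the 92 members 83 passed the filter on low counts and were tested, and 0 of the 83 passed at an FDR of 0.05 in the edgeR quasi-likelihood test with Benjamini-Hochberg adjustment over all 16809 genes, where 0.0952% of all genes tested passed (0.0595% higher in KO and 0.0357% lower). At an FDR of 0.10 it was again 0 of the 83, beside 0.178% of all genes. At an unadjusted p under 0.05 there were 17 members, 20.5% of those tested, beside 9.14% of all genes. Of the 17, 7 were higher in KO (8.43%, beside 5.15% of all genes) and 10 lower (12%, beside 3.99%). With DESeq2 on the same samples 4 members passed at an FDR of 0.05 (4.82%, beside 1.52% of all genes), Kcng4 higher (beside 0.857% of all genes) and Kcnip4, Kcnip2 and Kcnab1 lower (beside 0.66%). With the 6 libraries counted separately in edgeR 3 passed (3.66%, beside 0.871% of all genes), Kcnip4, Kcnip2 and Kcnab1, all lower (beside 0.411%), with 0 higher (beside 0.46%). The members did not shift as a whole: 42 were positive (50.6%, beside 50.2% of all genes) and 41 negative, with a median log2 fold change of 0.02 (KO over WT), beside 0.00 over all genes tested. That median was 0.11 without KO 4 and -0.16 without KO 5 and 6.

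**Figure D3:**
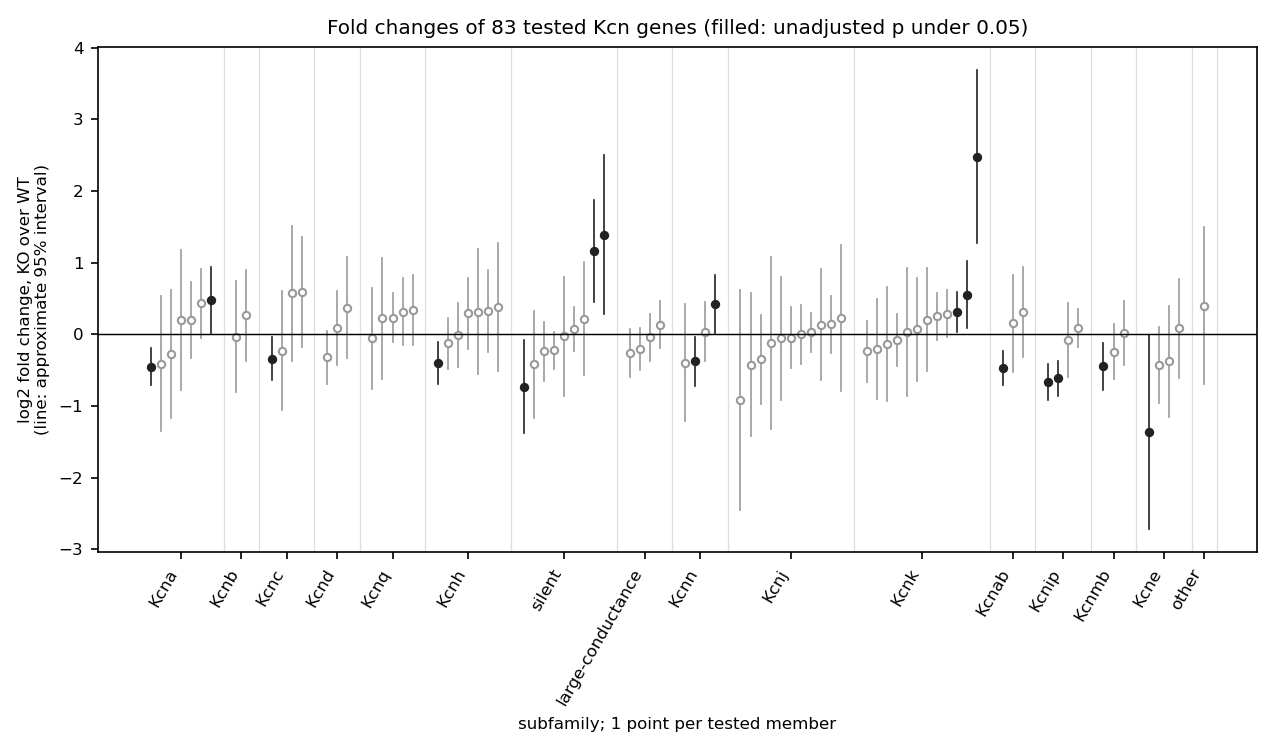
Log2 fold change (KO over WT) of the 83 tested Kcn genes, grouped by subfamily, with approximate 95% intervals from edgeR. Filled points have an unadjusted p under 0.05, 7 above and 10 below 0; none passed after adjustment over all genes. The point highest above 0 is Kcnk16, at 2.48 and with 16 counts or fewer per library.

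The KO and WT libraries did not overlap for 27 of the 83 members (32.5%, beside 24.2% of all genes), with 11 higher in every KO library (13.3%, beside 10.1%) and 16 lower (19.3%, beside 14.1%). The 12 members of at least 1 CPM with the smallest p, all of them without overlap, comprised 8 lower and 4 higher in KO. They were picked by p on these same libraries, which favours groups without overlap.

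Kcnip4 had the smallest p. It was at 154, 151 and 150 CPM in KO libraries 4, 5 and 6, against 260, 232 and 236 CPM in WT libraries 1, 2 and 3. Every KO library lay well below every WT library, and the KO libraries were nearly level. The level was 1.59-fold higher in WT, a log2 fold change of -0.67 (standard error 0.10, approximate 95% interval -0.92 to -0.42, edgeR unadjusted p = 0.000496, adjusted p = 0.177). Kcnip4 lies on chromosome 5 from 48389502 to 49524907 on the minus strand, and noncoding genes on the other strand overlap its exons, of which 5730480H06Rik averaged 272 counts per library and Gm20700 124, beside 6255 for Kcnip4.

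Kcnip2, which encodes a Kcnd partner of the same family and lies on chromosome 19 from 45791839 to 45816061, was at 73.0, 76.9 and 76.8 CPM in KO libraries, against 113, 120 and 112 CPM in WT libraries. The gap between the genotypes was again wider than the spread within either. Kcnip2 was 1.53-fold higher in WT (log2 fold change -0.61, standard error 0.10, edgeR adjusted p = 0.206). Kcnip1 was at 44.5 ± 0.338 CPM in KO (SD, n = 2) and 41.9 ± 2.89 CPM in WT (SD, n = 3), with KO libraries just above WT (log2 fold change 0.09, interval -0.17 to 0.36). Kcnip3, which also acts as a calcium-dependent repressor of transcription, was at 196, 254 and 258 CPM in KO libraries and 210, 304 and 204 CPM in WT libraries, with overlap and a log2 fold change of -0.08 whose interval ran from -0.60 to 0.44.

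Kcnab1, on chromosome 3 from 65109384 to 65378223, encodes the beta subunit that gives Kcna channels fast inactivation. It was at 141, 144 and 150 CPM in KO libraries, against 203, 194 and 202 CPM in WT libraries (log2 fold change -0.47, standard error 0.10, edgeR adjusted p = 0.256). All KO libraries were below all WT libraries. Kcna4, the Kcna channel that inactivates fast by itself and is prominent in small sensory neurons, was at 23.5, 25.5 and 24.8 CPM in KO libraries and 34.3, 32.2 and 33.6 CPM in WT libraries. The counts of Kcna4 thus did not overlap (log2 fold change -0.45, standard error 0.11, edgeR adjusted p = 0.306), but its deposited TPM did, with 12.3, 11.9 and 15.9 in KO libraries and 15.7, 14.6 and 16.4 in WT libraries. The transcript length that RSEM, the authors' quantifier, assigned to Kcna4 ran from 3523 bases in KO library 6 to 4792 bases in KO library 5 and in WT libraries 1 and 2, and its part in the difference was not tested.

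Kcng4 encodes a silent subunit that joins Kcnb channels and shifts the voltage at which they inactivate. It was at 19.1, 26.6 and 28.6 CPM in KO libraries, against 6.68, 12.5 and 12.2 CPM in WT libraries. The lowest KO library was above the highest WT library, and the mean was 2.24-fold higher in KO (log2 fold change 1.16, standard error 0.29, interval 0.46 to 1.87, edgeR adjusted p = 0.334). Kcng1, another silent subunit, was at 2.93, 6.94 and 7.44 CPM in KO libraries and 1.11, 2.29 and 2.50 CPM in WT libraries (log2 fold change 1.39, standard error 0.46, edgeR adjusted p = 0.465). KO library 4 lay close to the WT libraries for Kcng1, and without KO 5 and 6 the log2 fold change was 0.58. Kcng2, of the same subfamily, was lower in every KO library, with 2.59, 4.36 and 4.03 CPM in KO libraries and 5.31, 7.01 and 4.85 CPM in WT libraries. Kcnb2, which encodes a pore-forming subunit of the kind they join, was at 48.6 ± 6.62 CPM in KO and 49.8 ± 18.7 CPM in WT.

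The promoter side is shown for Kcnip2, Kcna4 and Kcng4, the members among the 5 with the smallest p and at least 1 CPM that have 1 start in the RefSeq table of the GRCm38.p6 build, so that lower and higher genes can be set side by side. Each line gives 250 bases upstream of the start, 5′ to 3′, with GC boxes (GGGCGG on either strand) in capitals. They lie at chr19:45816064-45816313 on the minus strand, chr2:107290339-107290588 on the plus strand and chr8:119635681-119635930 on the minus strand. The Kcna4 window ends short of the start of that gene in the GENCODE annotation, 107290639. Its distance to the start may thus differ from that of the other windows.
Kcnip2: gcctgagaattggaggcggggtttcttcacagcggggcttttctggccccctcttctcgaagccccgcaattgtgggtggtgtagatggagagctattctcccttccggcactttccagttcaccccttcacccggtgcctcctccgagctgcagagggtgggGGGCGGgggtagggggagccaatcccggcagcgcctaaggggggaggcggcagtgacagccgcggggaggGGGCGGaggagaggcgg
Kcna4: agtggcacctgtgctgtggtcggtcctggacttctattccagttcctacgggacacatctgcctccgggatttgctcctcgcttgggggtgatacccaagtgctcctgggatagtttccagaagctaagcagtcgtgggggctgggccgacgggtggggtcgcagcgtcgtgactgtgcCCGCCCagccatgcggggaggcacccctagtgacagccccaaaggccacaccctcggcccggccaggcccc
Kcng4: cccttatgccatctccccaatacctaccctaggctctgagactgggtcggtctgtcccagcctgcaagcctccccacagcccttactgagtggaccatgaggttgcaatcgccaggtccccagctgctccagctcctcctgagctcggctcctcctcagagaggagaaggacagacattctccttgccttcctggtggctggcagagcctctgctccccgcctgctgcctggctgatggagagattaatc
The window of Kcnip2 held 2 GC boxes, that of Kcna4 1 and that of Kcng4 0. A GC box was found in 41 of the 92 windows listed for the 67 members that matched the table (44.6%) and in 32.7% of all 32851 windows. The AP-1 site TGANTCA, searched on both strands, was in none of these 3 windows, in 4 of the 92 (4.35%) and in 6.75% of all windows. The cyclic AMP response element TGACGTCA was in 0 of the 92 and in 1.55% of all. Such matches describe letters only.

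**Figure D4:**
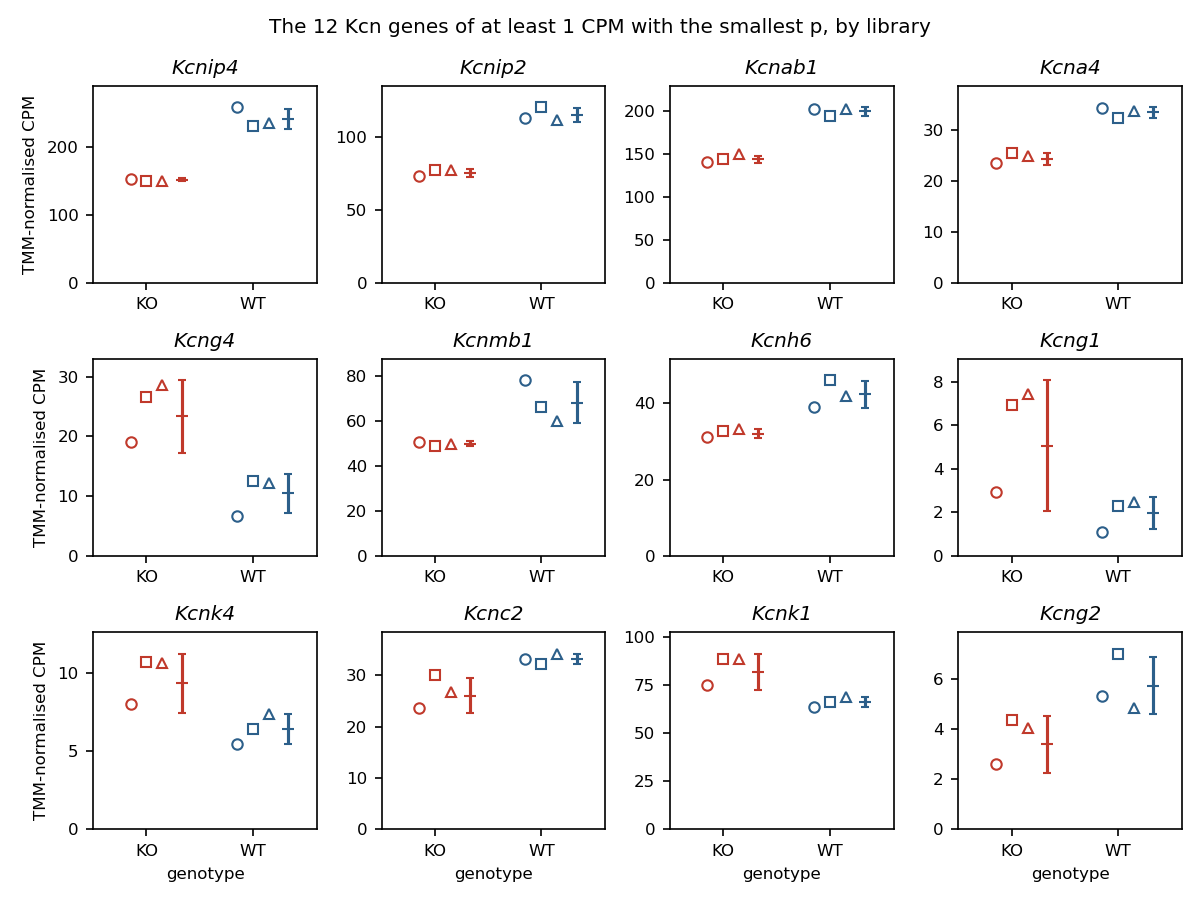
TMM-normalised CPM of the 12 Kcn genes of at least 1 CPM with the smallest p, from a baseline of 0, in KO (red) and WT (blue). Open symbols are libraries (circle, square and triangle for KO 4, 5 and 6 and for WT 1, 2 and 3) and bars the mean and SD (n = 2 for KO, with libraries 5 and 6 averaged, and n = 3 for WT). No gene shows overlap between genotypes, which the choice by p favours, and in Kcng4, Kcng1, Kcnk4 and Kcnk1 KO library 4 lies nearest to WT.

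Of the other voltage-gated genes in this set, Kcnh6, an ether-a-go-go-related channel, was at 31.2, 32.7 and 33.1 CPM in KO libraries and 39.0, 46.0 and 41.9 CPM in WT libraries (log2 fold change -0.40, standard error 0.12). Kcnc2, a fast channel of the Kcnc family, was at 26.0 ± 3.36 CPM in KO and 33.2 ± 1.02 CPM in WT. Kcnmb1, the beta subunit of the large-conductance calcium-activated channel, was at 50.6, 48.7 and 49.5 CPM in KO libraries and 78.05, 66.4 and 60.1 CPM in WT libraries. The pore gene Kcnma1 was at 28.5 ± 0.890 CPM in KO and 29.4 ± 3.69 CPM in WT, with an interval for its log2 fold change of -0.37 to 0.29. None of these had an edgeR adjusted p under 0.41.

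Among two-pore channels 8 of the 12 tested were positive (beside 50.2% of all genes), and 5 of them were higher in every KO library than in any WT library (beside 10.1% of all genes). Kcnk4, a channel opened by membrane stretch, was at 8.03, 10.8 and 10.7 CPM in KO libraries and 5.45, 6.44 and 7.42 CPM in WT libraries (log2 fold change 0.55, standard error 0.20). Kcnk1 was at 75.0, 88.5 and 88.7 CPM in KO libraries and 63.5, 66.2 and 68.7 CPM in WT libraries (log2 fold change 0.31, standard error 0.12). Kcnk10 and Kcnk5 were at 0.29 and 0.25 on the log2 scale. The fifth, Kcnk16, is a channel known from pancreatic islets and had 15, 15 and 16 counts in KO libraries 4, 5 and 6 and 4, 3 and 1 in WT libraries 1, 2 and 3. Its log2 fold change of 2.48 (standard error 0.50, edgeR adjusted p = 0.251) thus rests on few reads. Of the small-conductance and intermediate calcium-activated channels, Kcnn4 was at 14.0 ± 0.498 CPM in KO and 10.5 ± 1.92 CPM in WT, and Kcnn1 at 28.2 ± 3.52 CPM in KO and 36.7 ± 3.76 CPM in WT. The Kcne genes, which encode small single-pass partners, were low throughout. Kcne4 was at 2.08, 1.55 and 1.53 CPM in KO libraries and 2.40, 2.36 and 2.50 CPM in WT libraries, and Kcne2 had 6, 6 and 3 counts in KO libraries and 16, 18 and 6 in WT libraries. Of the 11 inward-rectifier members tested, 0 had an unadjusted p under 0.05 in edgeR (beside 9.14% of all genes) and 0 had groups without overlap (beside 24.2%). This does not cover Kcnj10 and Kcnj8, which are not members. Kcnj10 had a log2 fold change of 0.61 (edgeR unadjusted p = 0.00252, adjusted p = 0.258) and Kcnj8 one of -0.43 (edgeR unadjusted p = 0.194).

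A list of 9 potassium channel genes reported to fall in ganglia after nerve injury, among them Kcna1, Kcna2, Kcna4, Kcnb2, Kcnd3, Kcns1 and Kcnk18, had 6 members positive and 3 negative, with a median log2 fold change of 0.22. Of all genes tested 50.2% were positive. In edgeR 0 of the list passed and 2 had an unadjusted p under 0.05 (beside 0.0952% and 9.14% of all genes). DESeq2 called 0 (beside 1.52%). Injured-neuron markers were higher in the same KO libraries, with 5 of the 6 (Atf3, Sprr1a, Gal, Ecel1, Npy and Sox11) passing and a summed level of 429 to 469 TPM in KO and 54.1 to 58.8 TPM in WT. Kcna1, which with Kcna2 forms the channels beside the nodes of myelinated axons, was at 635, 874 and 871 CPM in KO libraries and 459, 639 and 533 CPM in WT libraries. KO library 4 lay just below WT library 2, so the groups overlapped (log2 fold change 0.48, interval 0.01 to 0.94, edgeR adjusted p = 0.536). Kcna2 was at 136, 143 and 150 CPM in KO libraries and 106, 79.2 and 129 CPM in WT libraries, without overlap (log2 fold change 0.43, interval -0.05 to 0.91). Besides Kcna4, the negative values were -0.32 for Kcnd3, the Kcnd channel of small neurons (interval -0.69 to 0.05), and -0.03 for Kcnb2. Kcns1 was at 0.22 (interval -0.57 to 1.01) and Kcnk18, a two-pore channel of nociceptors, at 0.07 (-0.65 to 0.79). The lower ends of the intervals of Kcna1 and Kcna2 were 0.01 and -0.05 on the log2 scale. These intervals are approximate, not adjusted for the number of genes and rest on n = 2 for KO, so they cannot exclude a fall. Those of Kcnb2, Kcns1 and Kcnk18 leave room for a change of 0.57 in either direction.

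Partners of potassium channels outside the Kcn names were read from a list of 24, of which 22 were tested, 17 positive and 5 negative. The positive share of all genes was 50.2%. In edgeR 0 of the partners passed and 3 had an unadjusted p under 0.05 (beside 0.0952% and 9.14% of all genes). DESeq2 called 1, Dlg2 (beside 1.52%). Dlg2, a scaffold that clusters Kcna channels, was at 72.1, 76.8 and 78.5 CPM in KO libraries and 54.4, 55.1 and 58.1 CPM in WT libraries (log2 fold change 0.43, standard error 0.10, edgeR adjusted p = 0.306, DESeq2 adjusted p = 0.0332, from 0.0332 to 1.00 over all alternatives). Dpp10, a transmembrane partner of Kcnd channels, was at 143, 144 and 152 CPM in KO libraries and 208, 172 and 230 CPM in WT libraries (log2 fold change -0.48, standard error 0.14, edgeR adjusted p = 0.413). Its relative Dpp6 was at 517 ± 34.6 CPM in KO and 498 ± 69.3 CPM in WT. Cntnap2, which holds Kcna channels beside the node, was at 261 ± 13.0 CPM in KO and 220 ± 2.39 CPM in WT. Of 12 regulators reported to act on potassium channel genes in injured sensory neurons, among them the repressor Rest and the methyltransferases Ehmt2 and Dnmt3a, 9 were positive and 3 negative. In edgeR 0 of the regulators passed and 1 had an unadjusted p under 0.05 (beside 0.0952% and 9.14% of all genes). DESeq2 called 0 (beside 1.52%). Cebpb at 0.54, Dnmt3a at 0.19 and Hdac1 at -0.14 had the smallest p in edgeR.

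Marker lists of the cell types in the ganglion had the following values beside these, with 0 markers passing in edgeR in the lists given here unless stated. The 5 non-peptidergic markers (Mrgprd, P2rx3 and 3 others) were all negative, summing to 411 to 482 TPM in KO and 560 to 608 TPM in WT. The 4 C-low-threshold mechanoreceptor markers in the table (Th, Slc17a8, Fam19a4 and Cdh9) were all negative, 1 of them (Th) passing, with 84.7 to 86.6 TPM in KO and 190 to 210 TPM in WT. The 6 markers of large-diameter neurons (Nefh, Pvalb, Ntrk3, Ntrk2, Spp1 and Runx3) were all positive, with 2167 to 2898 TPM in KO and 1581 to 2307 TPM in WT. The 4 peptidergic markers were 3 positive and 1 negative, with 3223 to 3254 TPM in KO and 3101 to 3474 TPM in WT. The 9 Schwann cell markers, the 5 of satellite glia (5491 to 6064 TPM in KO and 4926 to 5369 TPM in WT) and the 5 of endothelium (48.0 to 52.2 TPM in KO and 36.8 to 39.2 TPM in WT) were all positive. The 6 mural cell markers were 4 positive and 2 negative, with 100 to 103 TPM in KO and 129 to 173 TPM in WT. The 4 of fibroblasts were 1 positive and 3 negative, with 427 to 579 TPM in KO and 529 to 777 TPM in WT. The 5 of macrophages were 2 positive and 3 negative, with 41.8 to 56.0 TPM in KO and 43.9 to 57.0 TPM in WT. No marker of these lists was at 0. Their part in the values of Kcnip4, Kcnip2, Kcnab1, Kcna4, Kcng4, Kcna1 and Kcna2 was not tested.

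Much of the spread of the members lay within the genotypes. Kcnc1, the fast delayed rectifier of rapidly firing neurons, was at 55.9, 114 and 116 CPM in KO libraries 4, 5 and 6 and at 43.8, 84.4 and 44.5 CPM in WT libraries 1, 2 and 3. KO libraries 5 and 6 and WT library 2 were high and the others low. The means of 85.4 ± 41.7 CPM in KO and 57.6 ± 23.3 CPM in WT differed by less than the KO SD but by more than the WT SD. Kcnh2, which encodes the ERG channel, was at 57.4, 107 and 111 CPM in KO and 51.0, 96.5 and 53.8 CPM in WT. The same libraries were high. Kcns1, a silent subunit of Kcnb channels, was at 33.3, 61.3 and 58.3 CPM in KO and 31.0, 55.3 and 34.3 CPM in WT. The reverse order was found for Kcnb2 (53.3, 44.97 and 42.9 CPM in KO and 56.0, 28.9 and 64.6 CPM in WT) and for Kcnh7, another channel of the ERG group (333, 286 and 288 CPM in KO and 355, 241 and 346 CPM in WT).

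Counted over the 83 tested members, 36 had WT library 2 as the highest WT library together with KO libraries 5 and 6 both above KO 4 (43.4%, beside 29.3% of all genes), and 11 had the reverse (13.3%, beside 25.7% of all genes). Across the 71 members of at least 1 CPM, the difference of KO libraries 5 and 6 from KO 4 correlated with the deviation of WT library 2 from the WT mean at a Pearson r of 0.68 and a Spearman rho of 0.72, and with that of WT library 1 at -0.74 and -0.81. Over 14457 genes of at least 1 CPM the values for WT library 2 were 0.54 and 0.64. These are correlations across genes of the same libraries, which are not independent replicates. The GC content of the annotated transcripts moved with the same spread. The 36 members high in WT library 2 and KO libraries 5 and 6 had a median GC content of 56.9%, and the 9 with the reverse order and at least 1 CPM had 43.1%, beside 53.4% for all 71. GC content correlated with the deviation of WT library 2 at a Spearman rho of 0.81 over the 71 members and 0.59 over the 14457 genes, and with the difference among KO libraries at 0.65 and 0.42. After a GC trend was removed from each sample over all genes, the correlation between the WT library 2 deviation and the KO difference was at a Pearson r of 0.47 over the members and 0.44 over all genes. The removal was not complete for the members. GC content still correlated with the WT library 2 deviation at a Spearman rho of 0.36 over the members, beside -0.01 over all genes. With the KO difference it was at 0.28 and -0.02. Kcnc1 then differed by 0.84 between KO libraries 5 and 6 and KO 4 on the log2 scale, beside 1.03 before. The large-diameter marker Nefh followed the same order of libraries, with 2972, 4146 and 4145 CPM in KO libraries 4, 5 and 6 and 1979.9, 3342 and 2409 CPM in WT libraries 1, 2 and 3. Pvalb, another such marker, did not, with 89.5, 78.3 and 81.5 CPM in KO and 71.5, 68.8 and 52.9 CPM in WT. The parts of GC content and of neuron composition in this spread were not tested.

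**Figure D5:**
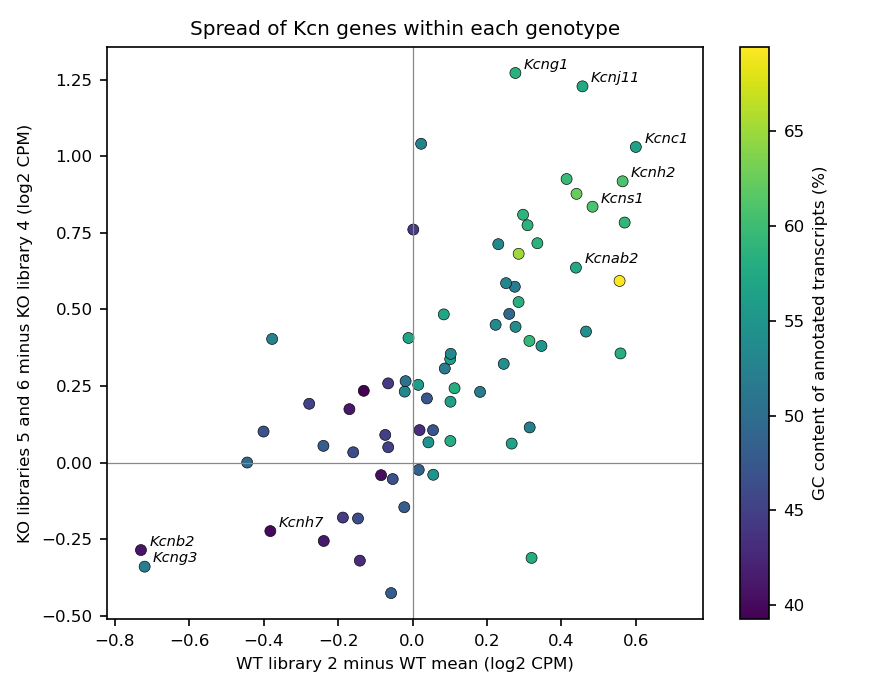
Spread within the genotypes for 71 Kcn genes of at least 1 CPM: KO libraries 5 and 6 (summed) minus KO library 4 on the vertical axis and WT library 2 minus the WT mean on the horizontal axis, both in log2 CPM, with colour for the GC content of annotated transcripts in percent. Most members lie along a rising diagonal (Pearson r of 0.68), GC-rich genes such as Kcnh2 at the upper right and GC-poor ones such as Kcnb2 and Kcnh7 at the lower left.

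Kcnip4, with a GC content of 40.3%, Kcnip2, with 54.8%, and Kcnab1, with 44.99%, are described by their ranges: over all alternatives run their log2 fold changes ran from -0.70 to -0.58, from -0.72 to -0.57 and from -0.50 to -0.42. Kcng4 ran from 0.87 to 1.41 and Kcna4 from -0.51 to -0.23. Kcng1 ran from 0.58 to 1.88, Kcng2 from -1.15 to -0.44, Kcnk4 from 0.32 to 0.74 and Kcnk1 from 0.18 to 0.43.

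The 9 members left out by the filter on low counts were Kcna7, Kcne1, Kcnh4, Kcnj1, Kcnj5, Kcnk15, Kcnk7, Kcnmb3 and Kcnv2, with at most 17 counts in any library. Kcnh4 had 6, 16 and 17 counts in KO libraries and 3, 4 and 6 in WT libraries. Kcnk7 had 1, 2 and 1 counts in KO libraries and 6, 4 and 7 in WT libraries, and Kcne1 and Kcnj1 had 1 count in all libraries together. With no filter all 92 members were fitted, and of these 9 Kcnk7 and Kcnh4 had an unadjusted p under 0.05 in edgeR (0.0429 and 0.0435, the smallest adjusted p being 0.601). These values rest on few reads.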

How the data were processed

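The authors deposited RSEM expected counts, TPM, FPKM and lengths for 6 libraries, on GRCm38, with Trimmomatic 0.38, STAR 2.6.0a and RSEM 1.3.0 per the submitters' processing notes. The expected counts are estimated counts per gene, deposited without normalization. The deposited TPM and FPKM values are scaled to library size and gene length, and FPKM entered no result. Annotation release and strand setting: not given in the sources used here. Reads of 26 members overlapped by exons of another gene on the opposite strand therefore cannot be told apart from that gene. On the same strand, exons of Catsperz overlapped those of Kcnk4 (means of 158 and 259.5 counts per library). Exons of Gm16334 likewise overlapped those of Kcnab2 (157 and 25049). GENCODE vM21 supplied gene symbols for 35243 identifiers, with their coordinates and transcript GC. Expected counts were rounded, KO libraries 5 and 6 summed, genes filtered with filterByExpr, TMM-scaled and fitted on genotype only by edgeR 4.0.16 (quasi-likelihood, under R 4.3.3, two-sided, Benjamini-Hochberg FDR of 0.05), after a check on simulated data. Standard errors are the absolute log2 fold change over the root of F, and 95% intervals are approximate. SDs are over samples with libraries 5 and 6 averaged. The labels number the mice but do not say how they were chosen, so p-values measure the spread between these samples. Alternatives used DESeq2 1.42.0 and limma 3.58.1 (voom, and log2(TPM + 0.1) and log2(TPM + 1)). Named members were those passing at an FDR of 0.05, the 12 of at least 1 CPM with the smallest p, the 12 of highest TPM and the nerve injury list, and from the lists of partners and regulators the 3 with the smallest p. Any further gene named was picked with its values known. Members and lists were chosen with earlier results of these data known. Results of some genes chosen by this rule are not reported here.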

Additional observations from a re-analysis of the deposited data

How the results depend on the processing

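No paired analysis was possible because no mouse number occurs in both genotypes. Against 0 members passing, DESeq2 called 1 higher and 3 lower, and counting the 6 libraries separately, with libraries 5 and 6 as 2 animals, gave 3 lower. No other alternative run called a member, an FDR of 0.10 included. DESeq2 also called the partner gene Dlg2 (adjusted p = 0.0332). Members at an unadjusted p under 0.05 numbered 10 on log2(TPM + 0.1) and 11 on log2(TPM + 1), against 17. All genes passing numbered 16, and became 144 with 6 libraries, 255 with DESeq2, 27 with limma-voom, 81 with no filter and 30 with GC correction. They ranged from 7 to 16 with KO libraries left out and from 8 to 14 with WT libraries left out. The median log2 fold change of members ranged from -0.1579 to 0.1074 with KO libraries left out and from 0.0186 to 0.0545 with WT libraries left out. Kcnb2 turned to 0.0074 on log2(TPM + 0.1), 0.004 on log2(TPM + 1) and 0.077 with GC correction, and ranged from -0.1706 to 0.0996 without KO libraries and from -0.3042 to 0.2014 without WT libraries. Kcnk18 turned to -0.04, -0.0235 and -0.0002 under the same 3 settings, and ranged from -0.5711 to 0.4911 without KO libraries. Kcnip3 turned to 0.0582 with limma-voom, and ranged from -0.2912 to 0.1052 without KO libraries and from -0.1819 to 0.1334 without WT libraries. Kcnd1 ranged from -0.1579 to 0.3003 without KO libraries and from -0.0277 to 0.2566 without WT libraries. Without KO libraries, Kcna6 ranged from -0.1275 to 0.4735, Kcnab2 from -0.2073 to 0.4444 and Kcns1 from -0.2709 to 0.5805. The cause was not tested. Adjusted p from DESeq2 was 4.1e-05 for Kcnip4 (up to 0.594 over all alternatives), 7.03e-05 for Kcnip2 (up to 0.571), 0.00645 for Kcnab1 (up to 0.754) and 0.0177 for Kcng4 (up to 0.982). Leaving out KO 4, or KO 5 and 6, left 1 KO sample, assumed to vary like WT. Low counts limit Kcnk16, Kcne2 and the 9 untested members.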
